A study of Canis lupus familiaris with 15 samples.

Results

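The comparison is of the 2 inhibitor groups of a series on dog kidney cells: cells given hepatocyte growth factor (HGF) with a compound spelled UO126 against cells given HGF with a compound spelled PD09859. Arrays were chosen by their titles, which gave 3 HGF + UO arrays and 4 HGF + PD arrays, 7 of the 15 arrays of the series. All cells were of MDCK (Madin-Darby canine kidney), an established epithelial line, and were kept for 7 days on Transwell filters in MEM with 5% FBS. Control cells (n = 4) had medium alone, HGF cells (n = 4) had 100 ng/ml HGF for 24 h, and the inhibitor groups had the same HGF with 50 uM PD09859 or 10 uM UO126. Both spellings were taken to mean inhibitors of MEK, PD98059 and U0126, and the groups are called PD and UO below. The doses were not matched, so a difference between the compounds and a difference between the doses cannot be told apart. Neither compound was analysed here in the absence of HGF, and no vehicle is stated in the sources used here. Replicates are labelled biological, but separate culture dates are not stated, and the p-values therefore describe the spread among these 7 and the other 8 arrays.

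HGF binds the receptor tyrosine kinase MET, which signals through RAS, RAF and MEK to the kinase ERK, and in MDCK cells loosens cell contacts and starts movement and tubule formation. ERK induces its own brakes, among them the dual-specificity phosphatases DUSP5 and DUSP6, so the mRNAs of these genes are often used to read the pathway. The series asked which genes respond to HGF by way of MAPK signalling. A comparison of the 2 inhibitor groups asks which transcripts had different levels under the 2 compounds while HGF was present in both.

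Each array measured 43035 probe sets, and levels are log2 of the deposited intensities. Tests ran on the 24904 probe sets with a log2 level of at least 4 on 3 or more of the 15 arrays, of which 18490 carried 1 gene symbol and stood for 10287 genes. Differences are HGF + UO minus HGF + PD on the log2 scale, and a difference was called at an adjusted p under 0.05 in limma. Markers of kidney epithelium were bright in both groups: EPCAM had a mean of 15.15 with PD and 15.31 with UO, KRT8 14.61 and 14.42, CDH1 9.11 and 9.14, and 0 of the 11 measured markers were called in limma, 2 of them at an unadjusted p under 0.05. Of the markers of other cell types, 5 of 11 for fibroblasts and smooth muscle, 5 of 10 for endothelium and 6 of 15 for leukocytes passed the filter, and 0 of these 16 were called, 1 of them at an unadjusted p under 0.05. Over all genes 9.77% were called, so counts of 0 among so few markers say little. The leukocyte genes DLA-DRA and CD74, which encode MHC class II proteins, were bright in all groups, with means of 15.25 and 15.24 for CD74, while CD3E (5.91 and 5.95), CD14 and CD68 were low. EGFL7 (10.87 and 11.10) was the brightest endothelial marker, and KDR and TIE1 were below a mean of 5 in both groups. The 3' to 5' log2 ratio of the main GAPDH control was 2.24 ± 0.03 (SD) with UO and 1.98 ± 0.07 with PD, without overlap (two-sided exact permutation p = 0.0286, the smallest that 35 arrangements can give; adjusted p = 0.2 over 7 array measures). The matching actin ratio was 2.15 with UO and 2.13 with PD (exact p = 0.743). HGF + UO 2 stood apart from its group, with a median intensity of 42.5 against 41.0 and 40.7 on the other UO arrays. The part of these array measures in the results was not tested, and the counts of probe sets and genes called are also given without that array.

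The called differences between the inhibitor groups were mostly small. Of the probe sets, 2295 (9.22%) were called, 636 higher with UO (2.55%) and 1659 lower with UO (6.66%), and only 72 of them differed by 1 log2 unit or more (26 higher, 46 lower). Of the genes, 278 were higher with UO (2.7%) and 727 lower (7.07%), and 37 differed by 1 or more. For 8275 genes (80.4%) the 95% interval of the difference lay within 0.5 of 0. The larger number of lower calls depended on the scaling: 72.3% of the called probe sets were lower with UO on the deposited scale, 61% after centring each array on its median and 58.7% after quantile normalisation. Without HGF + UO 2, 1254 probe sets (467 higher, 787 lower) and 564 genes (192 higher, 372 lower) were called, and without HGF + PD 4, HGF + UO 1 or HGF + UO 3 there were 1208, 1484 and 1475 probe sets. Of the calls from all arrays, 49.2% were made again without HGF + UO 2 and 90.4% without HGF + PD 2. Leaving out 1 inhibitor array gave 1.53% to 3.01% of genes higher and 3.62% to 9.43% lower. Counts of list members without 1 array, given below, stand beside these shares.

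**Figure D1:**
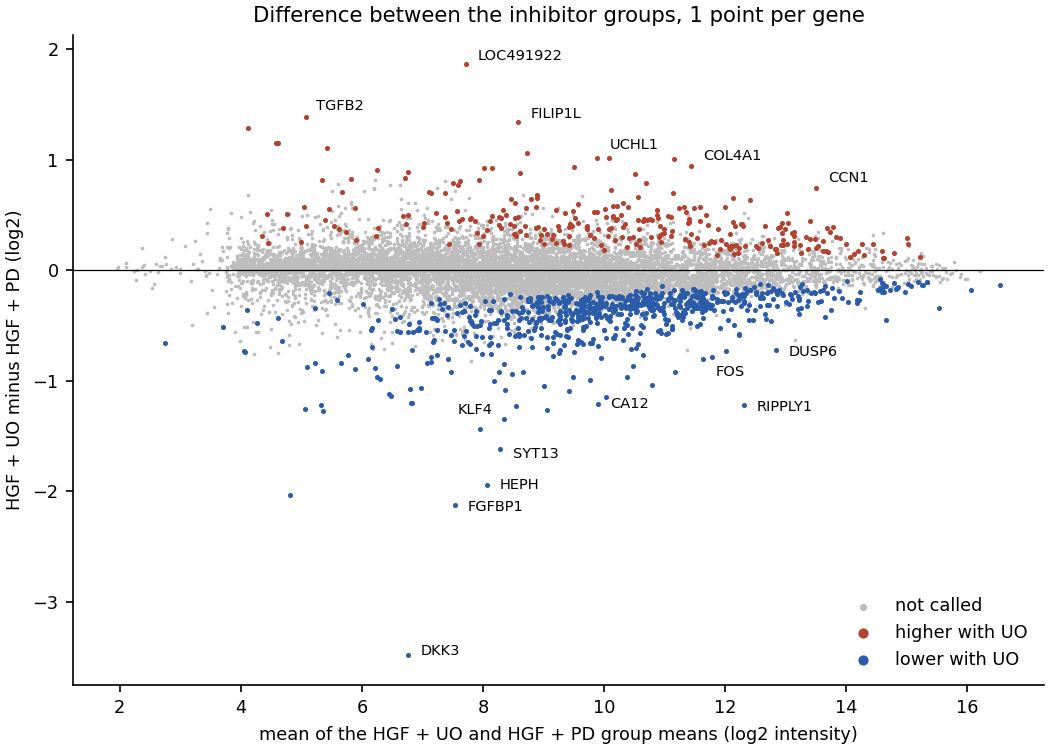
Each point is 1 of 10287 genes, placed by the mean of its 2 inhibitor group means (log2 intensity) and by HGF + UO minus HGF + PD (log2). Red points are the 278 genes called higher with UO and blue points the 727 called lower, and DKK3 lies farthest from 0, at -3.49.

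DKK3, which encodes a secreted glycoprotein of the dickkopf family, was the gene that differed most. Its level was 8.48, 8.28, 8.83 and 8.44 on the 4 HGF + PD arrays and 5.16, 5.16 and 4.75 on the 3 HGF + UO arrays, each in replicate order here and below. The difference was -3.49 ± 0.20 (SE; adjusted p = 7.52e-07), or 11.2-fold lower with UO. Mean levels of 4.28 in Control and 5.95 with HGF put the PD arrays above every other group, and PD minus Control was 4.23 (adjusted p = 2.07e-09). A second, dim probe set of DKK3 had a difference of -0.03, and the mean of its probe sets differed by -1.76. In MME, CA12, CLDN16 and CLDN10 the PD group was also the highest of the 4, while the order of the other groups varied. MME, the cell surface metallopeptidase neprilysin, stood at 8.32, 8.93, 8.43 and 8.97 with PD and 7.19, 7.31 and 7.19 with UO, a difference of -1.43 ± 0.27 (SE; adjusted p = 0.00533). Its means were 6.69 in Control and 3.47 with HGF. CA12, a membrane-bound carbonic anhydrase, was at 10.28, 10.69, 10.43 and 10.59 with PD and 9.35, 9.24 and 9.27 with UO, a difference of -1.21 ± 0.09 (SE; adjusted p = 6.71e-06). It was at 9.61 in Control and 10.08 with HGF. For both genes every PD array lay above every UO array. CLDN16, which encodes a claudin of tight junctions, had means of 10.62 with PD, 9.99 with UO, 9.74 in Control and 9.62 with HGF, and UO minus PD was -0.63 (adjusted p = 0.00208). CLDN10, another claudin gene, was near the floor in Control (3.18) and HGF (3.15) and measured 7.29, 6.85, 7.52 and 7.70 with PD and 5.96, 7.00 and 5.82 with UO. Its difference of -1.08 ± 0.23 (SE; adjusted p = 0.0119) rested on overlapping arrays, since HGF + UO 2 lay above the lowest PD array, and it was no longer called without HGF + UO 1 or HGF + UO 3 (adjusted p up to 0.0568) or in the fit of only the 7 inhibitor arrays (0.104). The mean of its probe sets differed by -0.33.

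Several genes that HGF raised were reduced further by UO than by PD. HEPH, a copper-dependent ferroxidase of iron export, had a mean of 7.34 in Control and 11.51 with HGF. It was at 8.92, 9.10, 9.07 and 9.07 with PD and 7.41, 6.97 and 6.92 with UO, a difference of -1.94 ± 0.13 (SE; adjusted p = 3.24e-06) or 3.84-fold. The UO arrays thus lay near the Control level and the PD arrays between Control and HGF. FGFBP1, a secreted carrier that frees fibroblast growth factors from the matrix, went from 3.58 in Control to 9.87 with HGF, and was at 8.86, 8.28, 8.29 and 9.00 with PD and 7.02, 7.03 and 5.39 with UO (-2.12 ± 0.31 SE, adjusted p = 0.00126). Its UO arrays did not overlap the PD arrays but spread widely, with HGF + UO 3 lowest. MALL, a MAL-like protein of membrane rafts, was at 8.88, 9.08, 9.14 and 8.97 with PD and 7.49, 7.65 and 7.88 with UO (-1.35 ± 0.10 SE, adjusted p = 6.71e-06), and both groups lay below the Control mean of 9.54, while the HGF mean was 12.02. SNAI2, the repressor of E-cadherin also called Slug, was at 10.05, 9.83, 9.96 and 10.00 with PD and 9.29, 8.64 and 8.68 with UO (-1.09 ± 0.19 SE, adjusted p = 0.00343), against 8.04 in Control and 13.86 with HGF. Most of its HGF change was absent under both compounds, and the remainder was smaller with UO. S100A4, a calcium-binding protein of motile cells, was at 10.90, 10.72, 10.86 and 10.95 with PD and 9.92, 10.10 and 9.64 with UO (-0.97 ± 0.09 SE, adjusted p = 6.41e-05). The prostaglandin synthase gene PTGS2 was at 9.03, 8.38, 8.60 and 9.06 with PD and 8.14, 8.31 and 7.31 with UO, closer together. The difference was -0.85 ± 0.23 (SE; adjusted p = 0.0337), and its HGF mean was 12.40. It was no longer called without HGF + PD 1, HGF + PD 4 or HGF + UO 3 (adjusted p up to 0.125) or in the fit of only the 7 inhibitor arrays (0.128), and without HGF + UO 3 the difference was -0.54. TMPRSS4, a transmembrane serine protease, and SPAG4, a protein of the nuclear envelope, differed by -1.20 (adjusted p = 0.00753) and -1.14 (adjusted p = 0.00297), and their HGF means were above Control by 1.84 and 2.93. STIL, which is needed for centriole duplication, differed by -1.20 (adjusted p = 0.0457), with means of 7.42 with PD, 6.22 with UO and 6.90 with HGF. Unlike the genes above, its PD mean was not below its HGF mean. STIL was no longer called without any 1 inhibitor array other than HGF + PD 2 (adjusted p up to 0.145). TSPAN15, a tetraspanin partner of the protease ADAM10, did not follow HGF (10.01 in Control, 10.04 with HGF), yet was at 9.57, 9.82, 9.66 and 9.71 with PD and 8.56, 8.39 and 8.32 with UO (-1.27 ± 0.09 SE, adjusted p = 6.71e-06), below the Control and HGF means in both groups.

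Genes that HGF lowered were in part restored less with UO. SYT13, a synaptotagmin, had means of 9.42 in Control and 6.92 with HGF, and was at 9.16, 8.91, 9.17 and 9.13 with PD and 7.54, 7.38 and 7.50 with UO (-1.62 ± 0.26 SE, adjusted p = 0.00208). RIPPLY1, a transcriptional corepressor known from somites, was at 12.82, 12.81, 13.13 and 12.93 with PD and 11.67, 11.64 and 11.81 with UO (-1.22 ± 0.22 SE, adjusted p = 0.00408), against 12.91 in Control and 7.95 with HGF. In both genes the PD arrays were near Control and the UO arrays lower, though for RIPPLY1 both were far above HGF. SLC2A9, a urate transporter with means of 11.41 in Control and 8.85 with HGF, was at 10.76, 10.57, 10.41 and 10.65 with PD and 9.71, 9.39 and 9.25 with UO (-1.15 ± 0.20 SE, adjusted p = 0.00328), and its second probe set differed by -0.82.

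Fewer genes were higher with UO. LOC491922, a locus with no other name in the annotation, was at 7.23, 6.47, 6.43 and 6.99 with PD and 9.00, 8.47 and 8.47 with UO, a difference of 1.86 ± 0.29 (SE; adjusted p = 0.00168) or 3.64-fold. Its HGF mean was 10.85 and its Control mean 6.23, so the UO arrays kept more of the HGF level. CTSK, the cysteine protease cathepsin K, was at 9.06, 8.73, 9.08 and 9.26 with PD and 10.00, 9.91 and 9.98 with UO (0.93 ± 0.13 SE, adjusted p = 0.00101), and CLIC3, of the chloride intracellular channel family, at 7.73, 7.57, 7.63 and 7.78 and 8.84, 8.55 and 8.42 (0.93 ± 0.11 SE, adjusted p = 0.000334). HGF had raised both, to 11.45 and 10.96, and neither pair of groups overlapped. TGFB2, a transforming growth factor, was dim, at 4.56, 4.79, 3.27 and 4.88 with PD and 5.83, 5.98 and 5.49 with UO (1.39 ± 0.31 SE, adjusted p = 0.014), with an HGF mean of 7.35; its second probe set differed by 0.40 and was not called. The TGFB2 difference was 0.68 with a pseudocount of 32, and it was no longer called without HGF + UO 2 (adjusted p = 0.0645) or in the fit of only the 7 inhibitor arrays (0.0899). Among genes that HGF lowered, UCHL1, a ubiquitin hydrolase, was at 9.44, 9.14, 9.38 and 9.52 with PD and 10.41, 10.41 and 10.35 with UO (1.02 ± 0.14 SE, adjusted p = 0.000827), the former near the Control mean of 9.36 and the latter above it. TMED6, a p24-type cargo protein of the early secretory pathway, was at 8.25, 8.09, 8.12 and 8.31 with PD and 9.35, 9.03 and 9.39 with UO (1.06 ± 0.14 SE, adjusted p = 0.000721), and both stayed below Control (9.88). NR2F2, a nuclear receptor also called COUP-TFII, and C2, a complement protease, differed by 0.87 (adjusted p = 0.00715) and 0.88 (adjusted p = 0.00377), and 1 of the 4 other probe sets of C2 was called (mean of all, 0.43). FILIP1L, a filamin A-interacting protein, was low in Control (4.66) and HGF (4.37) and higher with both compounds, at 8.10, 7.83, 7.44 and 8.24 with PD and 9.35, 9.45 and 8.93 with UO (1.34 ± 0.32 SE, adjusted p = 0.0199). COL4A1, a basement membrane collagen chain, was at 10.83, 11.24, 10.71 and 11.05 with PD and 11.96, 11.68 and 12.07 with UO (0.94 ± 0.12 SE, adjusted p = 0.000566), and all 3 of its probe sets were called. Its PD arrays lay below the Control mean of 11.51 and its UO arrays above it. SYNE1, the nuclear envelope protein nesprin-1, differed by 0.92 (adjusted p = 0.00255) and DST, the plakin dystonin, by 1.02 (adjusted p = 0.00423), although only 1 of the 7 other DST probe sets was called and the mean of all gave 0.35. AHNAK2, a very large scaffold protein, and LOC607806, another unnamed locus, differed by 0.89 (adjusted p = 0.00589) and 0.91 (adjusted p = 0.00829), and DR1, a repressor of transcription, by 1.01 (adjusted p = 0.0194) with neither of its other 2 probe sets called. The mean of the probe sets of LOC607806 and of DR1 differed by 0.49 and 0.48. FILIP1L was no longer called without HGF + PD 3, HGF + UO 1 or HGF + UO 2 (adjusted p up to 0.0827), DR1 without HGF + PD 4, HGF + UO 1 or HGF + UO 3 (adjusted p up to 0.0737), and AHNAK2 and DR1 in the fit of only the 7 inhibitor arrays (0.0509 and 0.0784).

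**Figure D2:**
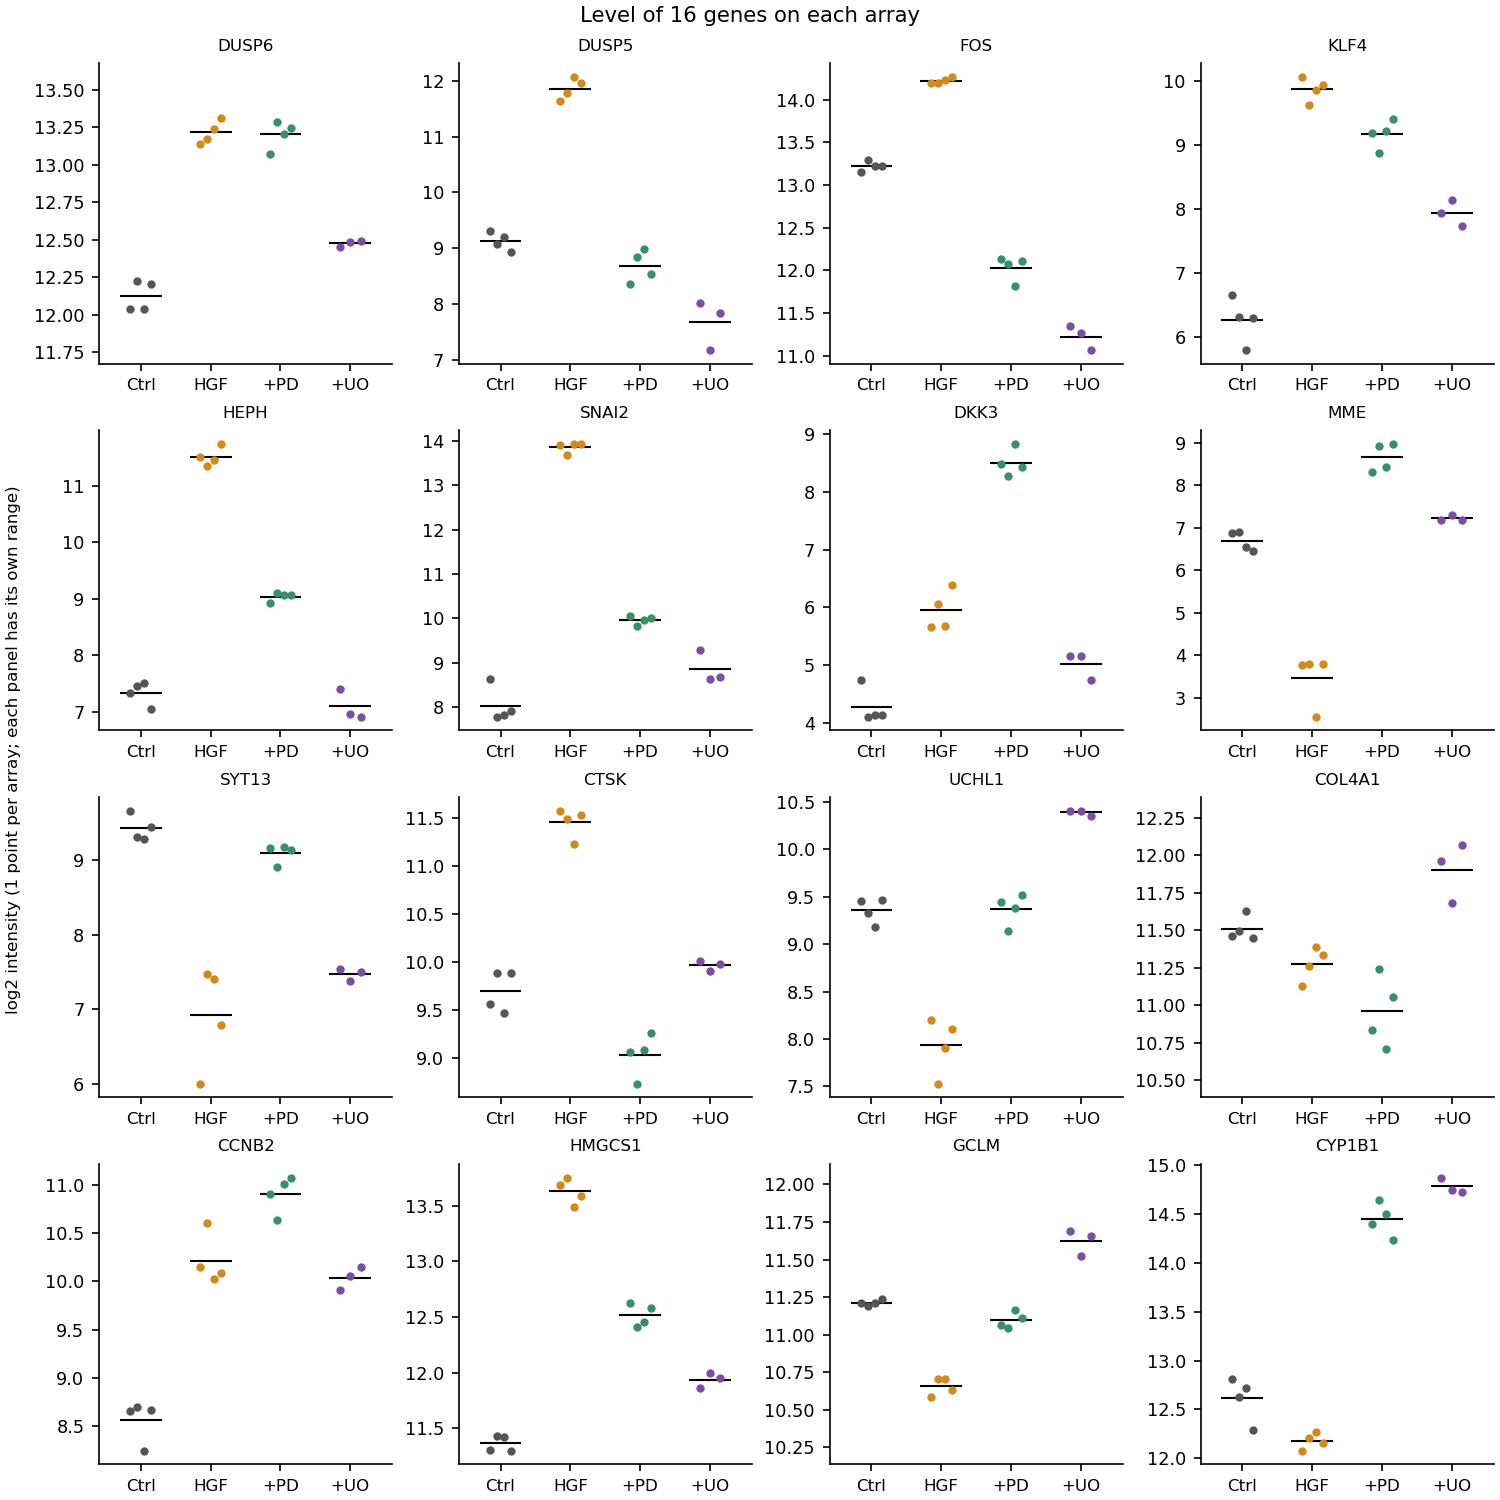
Log2 intensity of 16 genes on each of the 15 arrays, 1 point per array with a bar at the group mean (Ctrl, Control; +PD, HGF + PD; +UO, HGF + UO), each panel on its own range. DUSP6 stayed at the HGF level with PD (13.20 against 13.22) and was lower with UO (12.48), while DKK3 was high with PD alone (8.51).

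The phosphatase gene DUSP6, the best known negative feedback target of ERK, separated the compounds with little spread. It was at 13.07, 13.29, 13.20 and 13.25 with PD and 12.45, 12.49 and 12.49 with UO, a difference of -0.72 ± 0.06 (SE; adjusted p = 2.54e-05), and its second probe set gave -0.71. The mean with PD (13.20) was that of HGF (13.22), and the mean with UO (12.48) lay nearer to Control (12.13). DUSP5, a nuclear phosphatase of ERK, was at 8.37, 8.84, 8.99 and 8.54 with PD and 8.01, 7.18 and 7.85 with UO (-1.00 ± 0.19 SE, adjusted p = 0.00601), below its Control mean of 9.13 in both, and lost its call when only the 7 inhibitor arrays were fitted. MYC, the growth-promoting transcription factor, differed by -0.42 (adjusted p = 0.0397) and ETV4, an ETS factor, by -0.98 (adjusted p = 0.0423). Neither was called without any 1 of HGF + PD 2, HGF + PD 3, HGF + PD 4 or the UO arrays (adjusted p up to 0.104 and 0.123). These were 4 of the 19 measured genes of a list of ERK output and feedback (21.1%, against 7.07% of all genes lower), with 0 higher. The list median was -0.03 beside -0.01 over all genes. That median was 0.0029 after median centring and ran from -0.11 without HGF + UO 2 to -0.02 without HGF + UO 3. In the fit of only the 7 inhibitor arrays 1 member was called, and 2 members were called without any 1 of HGF + PD 2, HGF + PD 3, HGF + PD 4, HGF + UO 1, HGF + UO 2 or HGF + UO 3. CCND1, cyclin D1, was at 9.16, 9.27, 9.27 and 9.32 with PD and 9.08, 8.85 and 9.06 with UO and was not called (-0.26, adjusted p = 0.0553), except after median centring (0.0468) and with the higher filter (0.047). The feedback regulators SPRED1 and IER3 had differences of -0.01 (95% interval -0.32 to 0.30) and 0.01 (-0.24 to 0.26), and PHLDA1 of 0.16 (-0.13 to 0.45). FOSL1 and ETV5 were dim in both groups, with means from 2.24 to 4.73. DUSP4 has no probe set with this symbol in the annotation used, and SPRY4 and SPRED2 were below the filter.

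Of 15 measured immediate early genes, which growth factors switch on within minutes, 2 were lower with UO (13.3%, against 7.07% of all genes) and 1 higher (6.67%, against 2.7%). The list median was 0.01 and ran from -0.07 without HGF + PD 2 to 0.07 without HGF + UO 3. FOS, a subunit of the AP-1 factor, was at 12.13, 12.07, 11.82 and 12.11 with PD and 11.35, 11.26 and 11.07 with UO (-0.81 ± 0.07 SE, adjusted p = 4.67e-05), below Control (13.22) in both groups. KLF4, a zinc finger factor of epithelial differentiation, was at 9.19, 8.87, 9.21 and 9.40 with PD and 7.93, 8.14 and 7.74 with UO (-1.23 ± 0.18 SE, adjusted p = 0.00115), above Control (6.26) in both. A dim second probe set differed by 0.04, and the mean of both by -0.59. CCN1, a matricellular protein induced by growth factors, went the other way, at 13.07, 13.28, 12.93 and 13.19 with PD and 13.98, 13.93 and 13.68 with UO (0.74 ± 0.10 SE, adjusted p = 0.00074), and HGF had raised it to 14.39. EGR1, another early zinc finger factor, was at 7.02, 8.15, 7.64 and 6.96 with PD and 8.09, 7.78 and 8.41 with UO, with overlapping arrays and no call (0.65, adjusted p = 0.142); without HGF + PD 2 its adjusted p was 0.0233. Of the 16 measured kinases and adaptors of the RAS to ERK pathway, 1 was higher (6.25%, against 2.7% of all genes) and 0 lower (against 7.07%). The gene called was the adaptor SHC1 (0.60, adjusted p = 0.0489). Its arrays overlapped and none of its other 4 probe sets was called, and it was no longer called without any 1 inhibitor array other than HGF + PD 2 (adjusted p up to 0.148). MAP2K1, which encodes the kinase MEK1, had means of 12.10 with PD and 12.03 with UO.

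The called genes of mitosis and of DNA replication were all lower with UO. Of 27 measured mitosis genes 14 were lower (51.9%) and 0 higher, with a median difference of -0.43, beside 7.07% lower and a median of -0.01 over all genes. The list medians were 2.07 for HGF minus Control, 0.01 for PD minus HGF and -0.48 for UO minus HGF, which share arrays with each other and with UO minus PD. CCNB2, a mitotic cyclin, was at 10.90, 10.64, 11.01 and 11.08 with PD and 9.91, 10.06 and 10.15 with UO (-0.87 ± 0.15 SE, adjusted p = 0.00297). BUB1B, a spindle checkpoint kinase, was at 8.49, 8.49, 8.61 and 8.73 and 7.72, 7.92 and 8.08 (-0.67 ± 0.11 SE, adjusted p = 0.00274). NDC80, of the outer kinetochore, was at 10.14, 9.89, 10.10 and 10.26 and 9.27, 9.50 and 9.55 (-0.66 ± 0.11 SE, adjusted p = 0.00215). Both other probe sets of NDC80 were negative and not called. In all 3 genes every UO array lay below every PD array, yet every group with HGF lay above the Control means of 8.57, 5.96 and 7.75. The largest difference in the list was that of TTK, a spindle checkpoint kinase, at -1.08 (adjusted p = 0.0305), followed by FOXM1, a transcription factor of mitotic genes, at -0.92 (adjusted p = 0.0226). TTK was no longer called without any 1 inhibitor array other than HGF + PD 2 (adjusted p up to 0.0957), and FOXM1 without HGF + PD 3, HGF + PD 4, HGF + UO 1 or HGF + UO 2 (adjusted p up to 0.107). CDK1 (-0.16, adjusted p = 0.263) and PLK1 (-0.42, adjusted p = 0.103) were not called. Leaving out 1 array changed the number of lower mitosis genes to 9 without HGF + PD 1, 16 without HGF + PD 2, 8 without HGF + PD 3, 5 without HGF + PD 4, 5 without HGF + UO 1, 9 without HGF + UO 2 and 8 without HGF + UO 3. The share of all genes called lower changed too. In the same order it was 5.45%, 9.43%, 5.46%, 3.66%, 4.62%, 3.62% and 4.67%.

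The list of DNA replication and S phase had 31 measured genes, of which 15 were lower with UO (48.4%, against 7.07% of all genes) and 0 higher, with a median of -0.29 beside -0.01 over all genes. RFC4, a subunit of the clamp loader, was at 11.37, 11.13, 11.30 and 11.44 with PD and 10.78, 10.68 and 10.73 with UO (-0.58 ± 0.07 SE, adjusted p = 0.000377). PCNA, the sliding clamp of DNA polymerase, was at 11.66, 11.61, 11.63 and 11.71 and 11.12, 11.18 and 11.23 (-0.48 ± 0.07 SE, adjusted p = 0.00175). The helicase subunit MCM7 was at 10.00, 10.09, 10.13 and 10.28 and 9.65, 9.51 and 9.79 (-0.48 ± 0.10 SE, adjusted p = 0.00864). The arrays of the 2 groups did not overlap for these genes. The second probe sets of PCNA and MCM7 gave -0.47 and -0.46, and the other clamp loader genes RFC3 and RFC5 differed by -0.40 (adjusted p = 0.015) and -0.29 (adjusted p = 0.0153). RFC3 was not called without HGF + UO 1 (adjusted p = 0.0629) and RFC5 not without HGF + UO 2 (adjusted p = 0.0683). The mean of PCNA with PD (11.65) was above that with HGF (10.87). The list had 9 lower genes after median centring, 9 after quantile normalisation and 9 when only the 7 inhibitor arrays were fitted. It had 11 without HGF + PD 1, 13 without HGF + PD 2, 8 without HGF + PD 3 and 6 without HGF + PD 4. Without HGF + UO 1, HGF + UO 2 or HGF + UO 3 it had 7, 7 and 10. Over all genes the share lower in these fits ran from 3.62% without HGF + UO 2 to 9.43% without HGF + PD 2. Of 9 measured cell cycle inhibitors and pocket proteins 2 were lower with UO (22.2%, against 7.07% of all genes) and 0 higher (against 2.7%). The differences were -0.53 (adjusted p = 0.0315) for CDKN2C, which binds CDK4 and CDK6, and -0.30 (adjusted p = 0.0216) for CCNG2, an atypical cyclin. CDKN2C was at 11.51, 11.06, 11.46 and 11.53 with PD and 10.78, 10.90 and 10.90 with UO. It was called in 6 of 16 alternatives and not without any 1 inhibitor array other than HGF + PD 2 (adjusted p up to 0.1). CCNG2 was not called without any 1 inhibitor array other than HGF + PD 1 or HGF + PD 2 (adjusted p up to 0.071). CDKN1A, the inhibitor p21, was at 7.25, 7.20, 6.60 and 7.29 with PD and 7.68, 7.44 and 7.26 with UO and was not called (0.38, adjusted p = 0.203), while its HGF mean was 12.76.

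Of 19 measured genes of cholesterol synthesis 9 were lower with UO (47.4%, against 7.07% of all genes) and 0 higher, with a median of -0.22 beside -0.01 over all genes. When 1 array was left out, 7 to 9 were lower. HMGCS1, the synthase that precedes HMG-CoA reductase, was at 12.62, 12.41, 12.46 and 12.58 with PD and 11.86, 12.00 and 11.95 with UO (-0.58 ± 0.07 SE, adjusted p = 0.000349). CYP51A1, the lanosterol demethylase, was at 11.75, 11.72, 11.81 and 11.88 and 11.27, 11.25 and 11.32 (-0.51 ± 0.05 SE, adjusted p = 0.000154). EBP, a sterol isomerase, had means of 11.17 ± 0.12 (SD) and 10.62 ± 0.03 (-0.55 ± 0.06 SE, adjusted p = 0.000277). HGF raised all 3, to means of 13.63, 13.00 and 11.68, and in each the PD and UO arrays lay between Control and HGF with UO nearer to Control. INSIG1, which retains the sterol sensor in the endoplasmic reticulum, differed by -0.59 (adjusted p = 0.00104), FDPS, farnesyl diphosphate synthase, by -0.49 (adjusted p = 0.00114), and DHCR7, the last enzyme of the pathway, by -0.72 (adjusted p = 0.0258). DHCR7 was not called without any 1 inhibitor array other than HGF + PD 2 or HGF + PD 3 (adjusted p up to 0.0766). SQLE, squalene epoxidase, was not called (-0.10, adjusted p = 0.3), nor was SREBF2, the factor that drives the pathway (-0.04, adjusted p = 0.943).

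Of 22 measured genes of fatty acid synthesis and oxidation 5 were lower (22.7%, against 7.07% of all genes) and 0 higher, with a median of -0.16 that was -0.09 without HGF + UO 2, where 4 were lower. CPT1A, which admits fatty acids to mitochondria, was at 10.85, 10.98, 11.19 and 11.08 with PD and 10.31, 10.30 and 10.18 with UO (-0.76 ± 0.07 SE, adjusted p = 4.8e-05), below both Control (10.89) and HGF (11.04) with UO. SCD, the stearoyl-CoA desaturase, was at 14.96, 14.87, 14.79 and 14.92 and 14.42, 14.36 and 14.53 (-0.45 ± 0.04 SE, adjusted p = 5.27e-05), and its other 2 probe sets differed by -0.84 and -0.78. HADHB, a subunit of the mitochondrial trifunctional protein, differed by -0.26 (adjusted p = 0.000904), the lipid-sensing receptor gene PPARG by -0.34 (adjusted p = 0.00508) and ANGPTL4, a lipase inhibitor, by -0.67 (adjusted p = 0.0346). ANGPTL4 was not called without HGF + PD 2, HGF + PD 3, HGF + PD 4 or HGF + UO 2 (adjusted p up to 0.16). Respiratory chain genes had small differences. Of 25 measured, 5 were lower (20%, against 7.07% of all genes) and 0 higher, with a median of -0.09, and every one of the 25 had a 95% interval within 0.5 of 0. The complex II subunit SDHA differed by -0.27 (adjusted p = 0.00573), NDUFA8 of complex I by -0.27 (adjusted p = 0.0118) and COX4I1 of complex IV by -0.20 (adjusted p = 0.0192). COX4I1 was not called without HGF + PD 4, HGF + UO 1 or HGF + UO 2 (adjusted p up to 0.0805), nor SDHA in the fit of only the 7 inhibitor arrays (0.0579). The number of lower genes was 3 after median centring and 2 in that fit. It was 3 without HGF + PD 1, 8 without HGF + PD 2 and 2 without HGF + PD 4, HGF + UO 1 or HGF + UO 2. In the same order, the share of all genes lower was 5.45%, 9.43%, 3.66%, 4.62% and 3.62%.

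The factor NRF2 drives an antioxidant program. Of its 18 measured genes 5 were higher with UO (27.8%, against 2.7% of all genes) and 1 lower (5.56%, against 7.07%). The list median was 0.07 and ran from 0.02 without HGF + PD 1 to 0.11 without HGF + PD 2 or HGF + PD 3. GCLM, the modifier subunit of the first enzyme of glutathione synthesis, was at 11.06, 11.05, 11.17 and 11.11 with PD and 11.69, 11.53 and 11.65 with UO (0.53 ± 0.05 SE, adjusted p = 5.06e-05), and HGF had lowered it from 11.21 to 10.66. ME1, the cytosolic malic enzyme, was at 12.10, 11.90, 11.93 and 11.91 and 12.39, 12.40 and 12.27 (0.40 ± 0.06 SE, adjusted p = 0.00115). PRDX1, a peroxiredoxin, was at 14.44, 14.30, 14.25 and 14.30 and 14.48, 14.56 and 14.63 (0.24 ± 0.05 SE, adjusted p = 0.011). The UO arrays of all 3 lay above the PD arrays and, on average, above Control. GSTA4, a glutathione transferase, and FTL, ferritin light chain, were higher by 0.22 (adjusted p = 0.0139) and 0.17 (adjusted p = 0.0199), and MGST1, a microsomal glutathione transferase, differed by -0.92 (adjusted p = 0.0337). Other targets showed no call, among them GCLC (0.05, adjusted p = 0.829), TXNRD1 (0.29, adjusted p = 0.0616) and HMOX1, which was near the floor. Without HGF + UO 3, 2 members were higher (PRDX1, GSTA4 and FTL were then not called), and in the fit of only the 7 inhibitor arrays 3. FTL was also not called without HGF + PD 3 or HGF + UO 1 (adjusted p up to 0.0735). MGST1 was not called without any 1 inhibitor array other than HGF + PD 2 (adjusted p up to 0.101), and 0 members were lower without HGF + PD 3, HGF + PD 4, HGF + UO 2 or HGF + UO 3.

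The aryl hydrocarbon receptor is a ligand-activated factor that induces CYP1B1 and TIPARP. Of its 9 measured list members 0 were called between the compounds in limma, and 3 had an unadjusted p under 0.05. Over all genes 2.7% were higher and 7.07% lower, so 0 in so short a list is near the share of all genes. CYP1B1, a cytochrome P450, was at 14.40, 14.64, 14.50 and 14.23 with PD and 14.87, 14.74 and 14.73 with UO, and its arrays did not overlap (0.34 ± 0.11 SE, adjusted p = 0.0736). It was called after median centring (0.0409) and without HGF + PD 2 (0.0342). Both groups lay above Control (12.61) and HGF (12.18): PD minus HGF was 2.27 (adjusted p = 1.76e-10) and UO minus HGF 2.60 (adjusted p = 1.12e-10), which share the HGF arrays. TIPARP, a poly-ADP-ribosyltransferase, was at 12.61, 12.72, 12.66 and 12.58 with PD and 12.79, 12.61 and 12.86 with UO, with overlap (95% interval -0.02 to 0.24), and its Control and HGF means were 10.61 and 11.32. NQO1, a quinone reductase, was at 13.19, 13.49, 13.48 and 13.26 and 13.80, 13.60 and 13.70 (0.34, adjusted p = 0.0742); its second probe set was called, at 0.42 (adjusted p = 0.0104). NQO1 was also called after median centring (0.0318) and by the mean of its probe sets (0.0143). AHR itself differed by -0.15 (adjusted p = 0.193). AHRR has no probe set with this symbol.

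**Figure D3:**
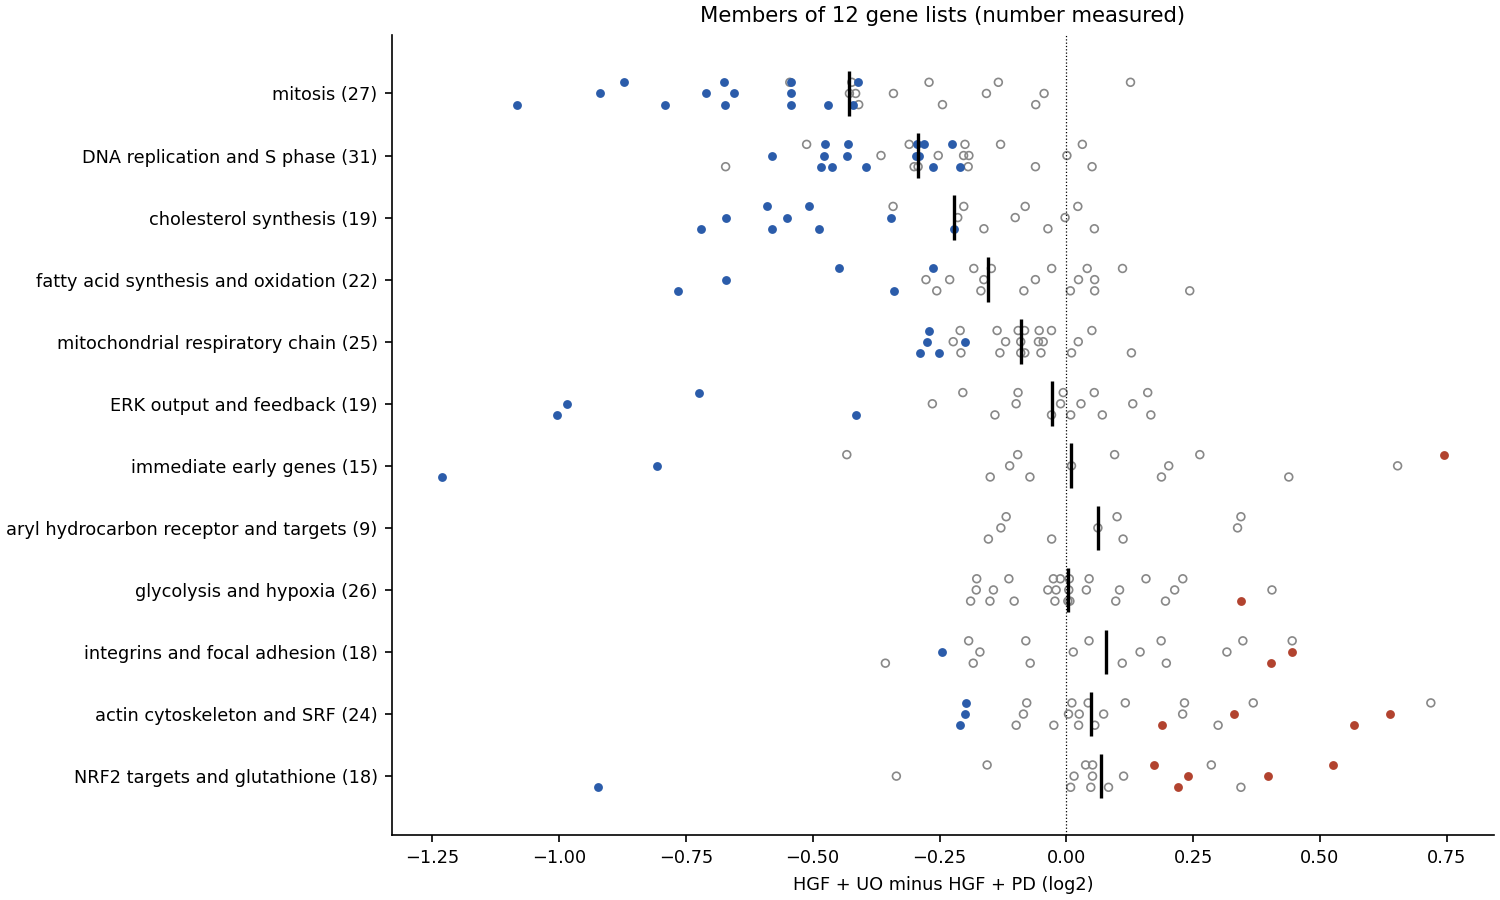
HGF + UO minus HGF + PD (log2) for each measured member of 12 gene lists, with the number measured in brackets; filled points were called (red higher, blue lower with UO), open points were not, and the black bar is the list median. The mitosis list lies farthest left of 0, with a median of -0.43, and the NRF2 list has 5 filled points to the right.

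Of 24 measured actin and SRF genes 4 were higher with UO (16.7%, against 2.7% of all genes) and 3 lower (12.5%, against 7.07%). The list median was 0.05 and ran from 0.03 without HGF + PD 1 to 0.08 without HGF + PD 3. RDX, the membrane linker radixin, was at 12.23, 12.30, 12.15 and 11.69 with PD and 12.84, 12.81 and 12.55 with UO (0.64 ± 0.13 SE, adjusted p = 0.00783), and its other 2 probe sets were not called (mean of all, 0.17). RDX was no longer called in the fit of only the 7 inhibitor arrays (0.0655). The myosin heavy chain gene MYH9 was at 9.84, 10.25, 10.20 and 10.16 and 10.80, 10.50 and 10.74 (0.57 ± 0.11 SE, adjusted p = 0.00768), with none of its other 3 probe sets called (mean of all, 0.36, not called). EZR, the related linker ezrin, was lower by a small amount (-0.21, adjusted p = 0.00234). With the mean of all probe sets of a gene 1 member was higher, after median centring 1 was lower, and in the fit of only the 7 inhibitor arrays there was 1 of each. Without HGF + UO 1, 2 were higher, and without HGF + UO 2 or HGF + UO 3, 1 was lower, against 3 without HGF + PD 2. Of 18 integrin and focal adhesion genes, ITGB6 (0.44, adjusted p = 0.00254) and ITGA1 (0.40, adjusted p = 0.0477) were higher (11.1%, against 2.7% of all genes) and ITGB3 lower (-0.25, adjusted p = 0.0426; 5.56%, against 7.07%). The mean of the probe sets of ITGB6 differed by 0.29. ITGB3 was called in 5 of 16 alternatives and not without any 1 inhibitor array (adjusted p up to 0.155), and ITGA1 in 8 and not without any 1 inhibitor array other than HGF + PD 1 (adjusted p up to 0.141). Of 31 junction and polarity genes, the desmosomal cadherin DSC2 was higher, at 10.81, 10.95, 10.86 and 10.55 with PD and 11.54, 11.50 and 11.45 with UO (0.70 ± 0.10 SE, adjusted p = 0.000969), as was the polarity kinase gene PRKCI (0.21, adjusted p = 0.0374), and CLDN16 and CLDN10 were lower. That is 6.45% each way, against 2.7% of all genes higher and 7.07% lower, so the share lower was near that of all genes. PRKCI was not called without any 1 inhibitor array other than HGF + PD 2 or HGF + UO 3 (adjusted p up to 0.142). Of 13 matrix proteases and inhibitors 0 were called in limma, and 4 had an unadjusted p under 0.05. Beside 2.7% of all genes higher and 7.07% lower, 0 in so short a list is near the share of all genes. TIMP1, which HGF raised from 6.48 to 13.89, was at 5.74, 5.81, 5.94 and 5.99 with PD and 6.02, 5.79 and 5.71 with UO, a difference of -0.03 (95% interval -0.24 to 0.18). MMP13, a collagenase with an HGF mean of 11.85, was near the filter level in both groups (4.09 and 4.34). MET, the HGF receptor, was at 10.78, 10.77, 10.76 and 10.96 and 10.81, 10.75 and 10.84, and its interval ran from -0.17 to 0.14. PDZK1, a scaffold of apical transporters that HGF lowered from 12.55 to 5.53, was at 13.44, 13.49, 13.41 and 13.50 with PD and 12.75, 12.78 and 12.96 with UO. Its arrays did not overlap and it was not called (-0.63, adjusted p = 0.34), while the fit of only the 7 inhibitor arrays gave an adjusted p of 0.0064.

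The direction in which HGF alone had moved a transcript was measured on the Control and HGF arrays, which share none with the inhibitor groups. HGF raised 6556 probe sets (26.3%) and lowered 7283 (29.2%). Of the 1659 probe sets lower with UO, 750 (45.2%) were raised by HGF and 499 (30.1%) were lowered. Of the 636 higher with UO, 310 (48.7%) were lowered by HGF and 143 (22.5%) were raised. The 750 were 11.4% of those HGF raised, and the 310 were 4.26% of those HGF lowered. Among the 545 probe sets that HGF raised by at least 2 log2 units, the median UO minus PD was -0.14, and 110 (20.2%) were lower with UO and 16 (2.94%) higher. Among the 379 that HGF lowered by at least 2, the median was -0.01, and 26 (6.86%) were higher and 24 (6.33%) lower. Over all probe sets kept, 2.55% were higher and 6.66% lower with UO. Leaving out 1 array gave 44.8% to 49.7% for the share raised among those lower with UO, and 39.5% to 51.2% for the share lowered among those higher with UO.

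**Figure D4:**
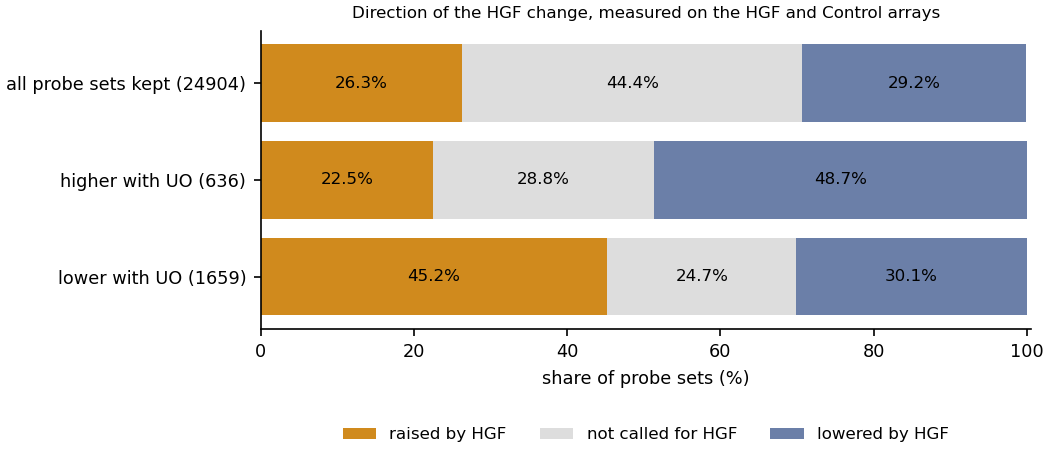
Share of probe sets (%) that HGF raised, lowered or left uncalled, for all probe sets kept and for those higher or lower with UO than with PD, with the number of each in brackets. Probe sets lower with UO hold 45.2% raised by HGF against 26.3% over all, and those higher with UO hold 48.7% lowered by HGF against 29.2%. Both comparisons share the spread estimate of the same fit, so their calls are not independent.

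The rule for named genes took the 14 largest differences each way among bright genes without overlap, down to NR2F2 (0.87) and SPAG4 (-1.14). The next genes, just outside it, were CDH3 (0.83), which encodes P-cadherin, and SNAI2 (-1.09), which is named through its list. Of the 37 genes that differed by 1 or more, 13 were left out by the rule for their low level, overlap or rank, and TTK is given above. Of the others, GLUL, glutamine synthetase, had the lowest adjusted p (1.31e-06), with means of 11.31 with PD and 10.27 with UO (-1.04), and was chosen after its values were seen.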

How the data were processed

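Gene expression was measured in MDCK cells on 15 Affymetrix canine arrays. The deposited values are linear intensities, 1 per probe set, for which the submitters' processing notes name GCRMA, with no version stated in the sources used here. GCRMA subtracts a background estimated from probe sequence, so differences near the floor depend on that estimate. Log2 of the deposited intensities was taken with no further scaling, and the 111 control probe sets were left out of the tests. Probe sets with a log2 of at least 4 on 3 or more of the 15 arrays were kept. The platform annotation lists 29254 probe sets with 1 symbol, 439 with several, which were not named, and leaves 13231 unlisted; 0 symbols changed on update through the Entrez identifier. Where a gene had several probe sets, the brightest on average stood for it.

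The tests used limma 3.58.1 (R 4.3.3), with 1 mean for each of the 4 groups over all 15 arrays, eBayes with a variance trend and Benjamini-Hochberg adjustment over the 24904 probe sets. Log2 differences are given ± their standard error (SE) from the fit. For array measures an exact permutation test, two-sided, was used. The scripts were tested on simulated data. The number of arrays limits the precision.

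The 30 gene lists (751 genes), the 4 marker lists and the members compared were chosen with earlier results of these data known. Named genes were the 14 largest differences each way among called genes without overlap between the groups' arrays and with a mean of at least 6 in the higher group, up to 3 called members of each list with the lowest adjusted p, and 25 genes named whatever their values. Further members of a list were chosen as examples after their values were seen. Alternatives were another filter, none, a pseudocount, median centring, quantile normalisation, no variance trend, a replicate block, only the 7 inhibitor arrays, the mean of a gene's probe sets and leaving out each inhibitor array.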

Additional observations from a re-analysis of the deposited data

Results flagged for a closer look

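Within the 4 HGF + PD arrays, 10 of 110 measures had 1 array far from the other 3, by the gap to the nearest array as a share of the group's range (above 0.829, which chance passes in about 1 in 20 groups). Groups of 3 such as HGF + UO were not tested. HGF + PD 1 was lowest for HEPH (0.83; 8.92, 9.10, 9.07 and 9.07) and for ITGB3 (0.955; 8.72, 8.75, 8.75 and 8.75). HGF + PD 2 was lowest for SYT13 (0.848; 9.16, 8.91, 9.17 and 9.13) and CDKN2C (0.853; 11.51, 11.06, 11.46 and 11.53). HGF + PD 3 was lowest for the hydroxylase gene P4HA1 (0.937; 13.07, 13.06, 12.62 and 13.09), PKHD1, the fibrocystin gene (0.831; 5.58, 5.60, 5.49 and 5.59), and CDKN1A (0.869; 7.25, 7.20, 6.60 and 7.29). HGF + PD 4 was highest for ETV5 (0.839; 4.64, 4.64, 4.69 and 4.93) and MET (0.912; 10.78, 10.77, 10.76 and 10.96) and had the lowest share of probe sets at the filter level (0.879; 56.9% against 57.0% on the others). In HEPH and SYT13 the distance between the groups was far wider than the range within HGF + PD.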

How the results depend on the processing

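When only the 7 inhibitor arrays were fitted, 997 probe sets were called, 292 higher and 705 lower with UO, and 434 genes in place of 1005. With a pseudocount of 32 on the intensities, 29 probe sets differed by at least 1, against 72. With no filter, 36862 probe sets had an interval within 0.5 of 0, against 19462. Leaving out 1 array gave 1208 to 2924 called probe sets, 383 to 738 higher, 787 to 2186 lower and 534 to 1280 genes. The replicate numbers did not pair the arrays: deviations of same-numbered UO and PD arrays correlated at -0.23 to 0.11 (3 pairs), and those of other numbers at -0.30 to 0.33. With the replicate number as a block, 1858 probe sets (542 higher, 1316 lower) and 802 genes were called. Other settings kept each of these counts within 1.5 times. Of the 87 named genes called, 56 were called under all of their alternatives and 0 changed direction; the fit of 7 arrays ended 25 calls and leaving out 1 array 5 to 18. The block ended 6 of these calls (BAD, CDKN2C, ITGA1, NFKBIA, SHC1 and STIL) and gave CDKN1A one (adjusted p = 0.0481). The sign turned for genes near 0 and never called: FOSL1 (0.026 after median centring, 0.17 with the block), IER3 (-0.066 with the mean of probe sets), MET (0.015 after centring, 0.037 after quantile normalisation, 0.028 with the block) and SPRED1 (0.021 and 0.0059 after centring and quantile normalisation). Leaving out 1 array gave -0.019 to 0.0098 for FOSL1, -0.097 to 0.124 for IER3, -0.039 to 0.030 for MET, -0.093 to 0.055 for SPRED1 and -0.122 to 0.033 for TIMP1. The median of the ERK output list was 0.0029 after centring. The cause of these shifts was not tested. Scaling moved the median over all probe sets from 0.00 to 0.03. Where a group lay near the filter level, as for TGFB2, the size of the difference also depends on the background estimate of the deposited values, which was not varied.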

Other observations

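Counts in the lists below, of at most 4 called members each, stand against 2.7% of all genes higher and 7.07% lower with UO. Of 14 measured heat shock and metallothionein genes, the small chaperones HSPB8 (8.45, 8.41, 8.69 and 8.68 with PD, 9.32, 9.28 and 9.09 with UO; 0.68 ± 0.10 SE, adjusted p = 0.00118) and HSPB1 (0.35 ± 0.07 SE, adjusted p = 0.0104) were higher with UO, and HSPH1 was lower by a small amount (-0.15 ± 0.03 SE, adjusted p = 0.011). Of 23 genes of the ATF4 and unfolded protein response, the serine pathway enzyme PHGDH was lower on all 5 of its probe sets (-0.46 ± 0.08 SE, adjusted p = 0.00373 for the brightest), SHMT2, the mitochondrial serine hydroxymethyltransferase, was lower (-0.37 ± 0.07 SE, adjusted p = 0.0046), and PSAT1, of the same serine pathway, was higher (0.25 ± 0.07 SE, adjusted p = 0.0346). Of 28 primary cilium and exocyst genes, the transport proteins IFT46 (-0.46 ± 0.12 SE, adjusted p = 0.0336) and IFT57 (-0.31 ± 0.05 SE, adjusted p = 0.00253) and the BBSome subunit BBS7 (-0.40 ± 0.08 SE, adjusted p = 0.0077) were lower and PKHD1 higher (0.35 ± 0.08 SE, adjusted p = 0.0183). The medians of these 3 lists were -0.07, -0.05 and -0.08, beside -0.01 over all genes. PSAT1 was not called without HGF + PD 3, HGF + PD 4, HGF + UO 1 or HGF + UO 2 (adjusted p up to 0.133), IFT46 not without any 1 inhibitor array other than HGF + PD 2 or HGF + UO 3 (adjusted p up to 0.117) and PKHD1 not without HGF + UO 2 or HGF + UO 3 (adjusted p up to 0.0707). HSPB1, HSPH1 and BBS7 were not called in the fit of only the 7 inhibitor arrays (0.058, 0.0567 and 0.0601), nor HSPH1 after median centring or quantile normalisation. The mean of the probe sets differed by 0.22 for HSPB1 and -0.22 for HSPH1.

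Of 14 apoptosis regulators, BIRC3, an inhibitor of apoptosis induced by NF-kB, was higher with UO (7.58, 7.25, 7.33 and 7.96 with PD, 8.63, 8.42 and 7.99 with UO; 0.82 ± 0.19 SE, adjusted p = 0.0156), and the death promoter BAD was lower (-0.33 ± 0.09 SE, adjusted p = 0.0294). That is 7.14% of the list each way, against 2.7% of all genes higher and 7.07% lower, so the share lower was near that of all genes. The mean of the probe sets of BIRC3 differed by 0.49. BIRC3 was not called without HGF + UO 1 or HGF + UO 2 (adjusted p up to 0.0705) or in the fit of only the 7 inhibitor arrays (0.0728), and BAD not without HGF + PD 3, HGF + PD 4, HGF + UO 1 or HGF + UO 2 (adjusted p up to 0.128). Of 15 inflammatory genes 2 were lower, PTGS2 and NFKBIA (-0.31 ± 0.09 SE, adjusted p = 0.0493), and NFKBIA was called in 4 of 16 alternatives and not without any 1 inhibitor array other than HGF + UO 1 (adjusted p up to 0.192). The bicarbonate transporter gene SLC4A7 was higher (9.64, 9.90, 9.83 and 9.64 with PD, 10.61, 10.45 and 10.38 with UO; 0.73 ± 0.12 SE, adjusted p = 0.00255) and with MME made 2 of 21 tubule transport genes called, 1 each way (4.76% each). The aldose reductase gene AKR1B1 (-0.45 ± 0.07 SE, adjusted p = 0.00208) and the epoxide hydrolase gene EPHX2 (-0.57 ± 0.12 SE, adjusted p = 0.00946) were lower, and were the 2 called of 12 xenobiotic and retinoid enzymes. In the interferon list of 18, IFI44L was higher (0.47 ± 0.09 SE, adjusted p = 0.00841); in the Wnt and Notch list of 16, besides DKK3, FZD6 (0.19 ± 0.05 SE, adjusted p = 0.0293); in the p53 list of 8, CCNG1 was lower (-0.15 ± 0.04 SE, adjusted p = 0.0286). Of 26 glycolysis and hypoxia genes P4HA1 was higher (0.34 ± 0.10 SE, adjusted p = 0.044), or 3.85%, near the 2.7% of all genes. FZD6 was not called without HGF + PD 3, HGF + PD 4, HGF + UO 1 or HGF + UO 2 (adjusted p up to 0.105), CCNG1 not without HGF + PD 1, HGF + PD 4, HGF + UO 1 or HGF + UO 3 (adjusted p up to 0.105) and P4HA1 not without HGF + PD 4, HGF + UO 1, HGF + UO 2 or HGF + UO 3 (adjusted p up to 0.146). CCNG1 was called in 7 of 16 alternatives (adjusted p up to 0.233), and not after median centring or quantile normalisation. P4HA1 was called in 8 of 16 and FZD6 in 10. By the mean of its probe sets FZD6 differed by 0.10 and was not called (adjusted p = 0.304). Of 19 mTOR and PI3K genes and of 17 genes of the MET and EGF receptor families 0 passed the limma test (2 and 3 at an unadjusted p under 0.05), at a list median of -0.01 and -0.02.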
